A study of Mus musculus with 6 samples.

Results

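Apical-basal polarity, planar polarity and adherens junction genes were followed across all libraries of a Sox11 allele series in mouse brain tissue labelled as embryonic. The set held 41 genes, each picked by its symbol among the 35274 rows of the deposited expression table. The genes were listed with earlier results of these data known. They fall into 6 groups: the Par complex with 8 genes, the Crumbs complex with 3, the Scribble complex with 8, the Numb proteins with 2, the adherens and tight junction with 10 and planar polarity with 10. Dentate neuroepithelium was taken from mice labelled E14 of 3 genotypes with 2 libraries each: SOX11f/f, called HOMO here after the library titles, SOX11f/+, called HTZ, and wild type, called WT. A floxed allele carries sites at which Cre recombinase can remove it. The labels name no line that supplies Cre, so which cells lost Sox11 is not given. The title of the series names progenitor polarity as an interest, and the comparisons below ask whether transcripts of the polarity machinery differed with genotype.

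Progenitors of the neuroepithelium are tall cells with an apical face at the ventricle and a basal process. The Par complex and the Crumbs complex mark the apical membrane, the Scribble complex marks the side and base, and each side holds the other out. Just below the apical surface, adherens junctions tie neighbouring cells together through cadherins and nectins, which catenins and afadin link to actin. Core planar polarity proteins sort to opposite faces of a cell within the sheet and orient it, and later guide axons. Loss of junction or Par components in the developing forebrain is known to release progenitors from the ventricular surface.

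Levels are given in TPM, a unit corrected for transcript length that can be compared between genes. Differences are given as log2 fold changes of TPM + 1 from limma, a linear model fitted over the 14518 genes that averaged 1 TPM or more, with Benjamini-Hochberg adjustment and a threshold of 0.05. Nothing in the labels says that the libraries came from separate animals, so each p-value rests on a spread that may be technical only. In dissected tissue, fewer cells of a type and less RNA per cell cannot be told apart.

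Sox11 itself, the transcription factor gene that carries the floxed alleles, stood at 5.23 and 5.06 TPM in HOMO, 56.1 and 50.1 TPM in HTZ, and 192 and 130 TPM in WT libraries. Its levels in the 3 genotypes did not overlap. By limma Sox11 passed the threshold in HOMO against WT, with a log2 fold change of -4.69 (limma adjusted p = 0.00082). In HTZ against WT it did not pass, at -1.56 (limma adjusted p = 0.105). The HTZ test thus did not call even the floxed gene, and a gene not called there may still differ. Radial glia markers summed to between 3415 and 4255 TPM in every library, of which Fabp7 alone held between 2268 and 3008 TPM. Of these 12 markers, 7 had a higher mean in HOMO and 7 in HTZ than in WT. Genes of mature brain were also present in these libraries labelled E14, with the astrocyte filament gene Gfap between 268 and 576 TPM, while Hbb-y, an embryonic globin gene, was listed at 0 in all 6. Libraries of the floxed genotypes held other cell types to unequal degrees. The choroid plexus markers summed to 6737 and 300.4 TPM in HOMO, 11773 and 47.1 TPM in HTZ, and 55.1 and 32.2 TPM in WT libraries. The multiciliated cell markers summed to 386 and 262 TPM in HOMO, 467 and 143 TPM in HTZ, and 7.92 and 7.82 TPM in WT libraries. Microglia markers summed to 381 and 394 TPM in HOMO, 474 and 305 TPM in HTZ, and 192 and 228 TPM in WT libraries, all 10 with higher means in both floxed genotypes, and 12 of 12 astrocyte and oligodendrocyte lineage markers had a higher mean in HOMO than in WT. Meningeal markers were uneven, at 96.6 and 623 TPM in HOMO, 265 and 220 TPM in HTZ, and 306 and 124 TPM in WT libraries. The dentate field markers went the other way from choroid plexus, at 765 and 763 TPM in HOMO, 748 and 787 TPM in HTZ, and 1416 and 951 TPM in WT libraries.

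Most of the 41 genes were transcribed at moderate to high levels, and no member passed the adjusted threshold in any comparison. By mean over the 6 libraries they ran from 0.882 TPM for Crb1 to 731 TPM for Ctnnb1, and 40 of the 41 passed the filter on low values, Crb1 being left out of the tests. The count of members called by limma was 0 for HOMO against WT, where 0.0413% of all tested genes were called, and 0 for HTZ against WT, where 0.0344% were called. It was also 0 for HOMO against HTZ (0.0138% of all genes) and 0 for the mean of both floxed genotypes against WT (0.592% of all genes). At an unadjusted p under 0.05 there were 8 members in HOMO against WT (18.1% of all genes), 3 higher (8.35%) and 5 lower (9.8%). There were 6 in HTZ against WT (14.1%), 1 higher (6.42%) and 5 lower (7.63%), 0 in HOMO against HTZ (2.05%) and 11 for both floxed genotypes against WT (20.3%). The libraries of HOMO and WT did not overlap for 26 of the 40 tested members, against 54.3% of all tested genes, and those of HTZ and WT for 19, against 46% of all tested genes. Read beside the shares over all genes, these counts are a description and no result about the members.

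**Figure D1:**
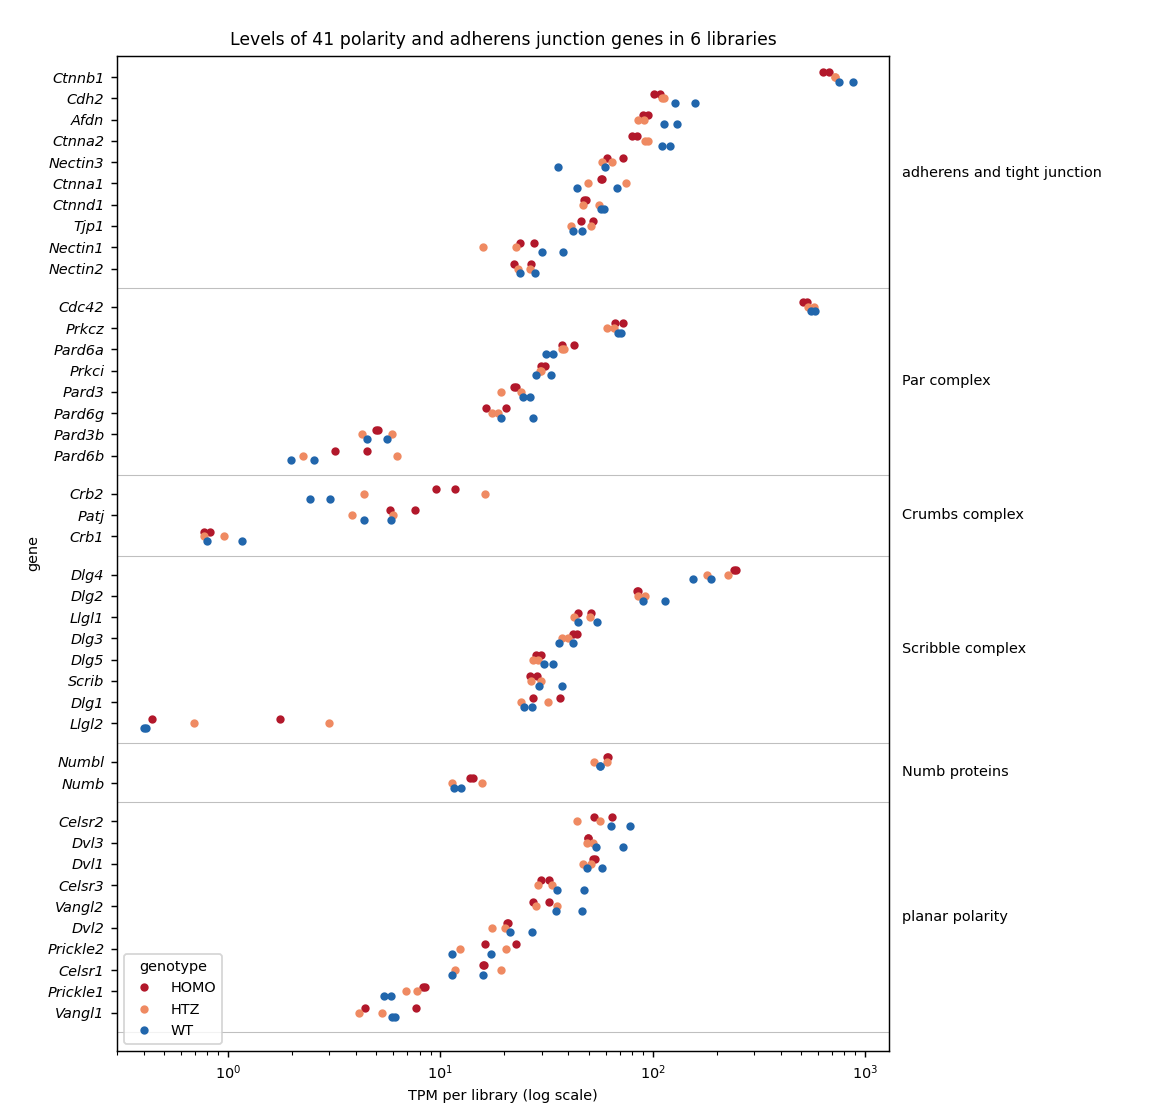
TPM of the 41 genes on a log scale, 1 point per library, with HOMO in red, HTZ in orange and WT in blue, grouped by complex and sorted by mean level within each. The genotypes sit close together for most genes; Crb2, Pard6b and Llgl2 spread most among the floxed libraries, and the points of Ctnna2, Cdh2 and Afdn lie to the left of the WT points in all 4 floxed libraries.

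The group medians lay on both sides of 0. Over the 40 tested members the median log2 fold change was -0.026 in HOMO against WT and -0.075 in HTZ against WT, beside -0.036 and -0.061 over all genes tested. The adherens and tight junction genes had the lowest median in HOMO, at -0.30, and stood at -0.18 in HTZ. The planar polarity genes stood at -0.12 in HOMO and -0.30 in HTZ, and at -0.027 and -0.13 without WT 1. The Par complex lay at -0.013 in HOMO and -0.040 in HTZ, and the Scribble complex at 0.043 in HOMO and -0.048 in HTZ. The Numb proteins lay at 0.16 in HOMO and 0.073 in HTZ, from 2 genes. The Crumbs complex stood at 0.99 in HOMO and 0.65 in HTZ, also from 2 tested genes, Crb2 and Patj. These medians are descriptions and were not tested against each other.

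**Figure D2:**
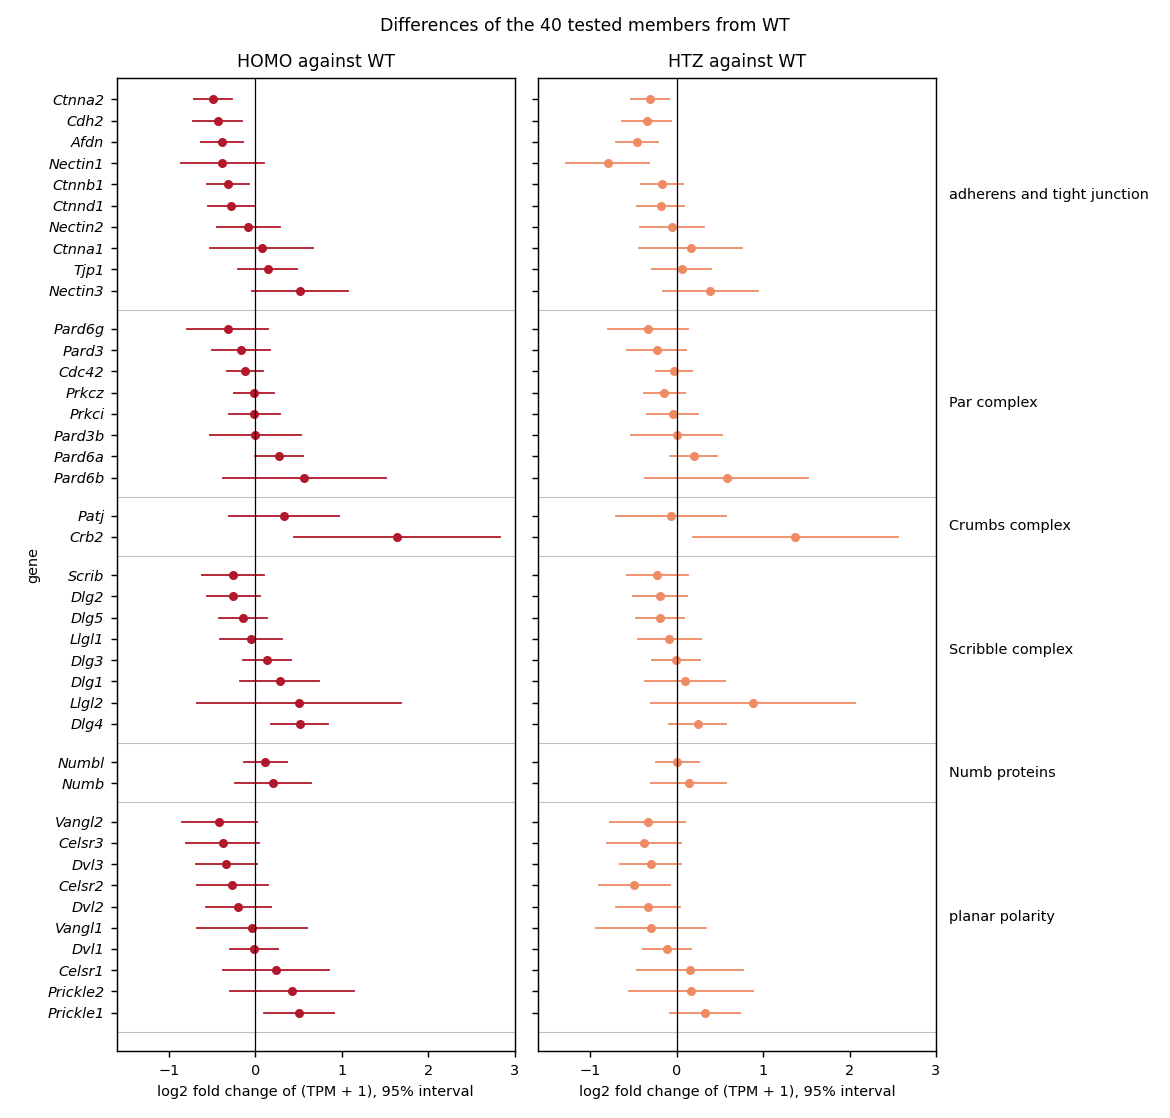
Log2 fold change of TPM + 1 against WT for the 40 tested genes, with the 95% interval from limma, for HOMO on the left and HTZ on the right. The intervals of 5 junction genes, Ctnna2, Cdh2, Afdn, Ctnnb1 and Ctnnd1, lie wholly below 0 in HOMO before adjustment over all genes, and those of Crb2, Dlg4 and Prickle1 lie wholly above it.

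Among the adherens junction genes, Cdh2, Ctnna2, Afdn, Ctnnb1, Ctnnd1 and Nectin1 were lower in all 4 floxed libraries than in either WT library, though none passed the adjusted threshold. Of all tested genes 21% lay that way, and of the 40 tested members 11 did. The remaining members among them were Pard3, Dlg5, Celsr3, Dvl2 and Dvl3. Cdh2, encoding N-cadherin, the main classical cadherin of the neuroepithelium, stood at 109 and 101 TPM in HOMO, 113 and 111 TPM in HTZ, and 158 and 128 TPM in WT libraries. Its log2 fold change was -0.44 in HOMO (SE 0.12, limma adjusted p = 0.154) and -0.35 in HTZ (SE 0.12, limma adjusted p = 0.316). Ctnna2, encoding the neural alpha-catenin that couples the cadherin complex to actin, stood at 84.0 and 80.3 TPM in HOMO, 94.6 and 92.0 TPM in HTZ, and 121 and 111 TPM in WT libraries. The 3 genotypes did not overlap, with HOMO lowest and WT highest. Ctnna2 came closest of all members to the threshold in HOMO, with a log2 fold change of -0.49 (SE 0.09, limma adjusted p = 0.0884), and stood at -0.31 in HTZ (SE 0.09, limma adjusted p = 0.286). Below an adjusted p of 0.1 in HOMO against WT, where 1.76% of all genes lay, it was the single member.

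Afdn, encoding afadin, which anchors nectins to actin, stood at 95.1 and 90.1 TPM in HOMO, 90.6 and 85.7 TPM in HTZ, and 130 and 113 TPM in WT libraries. The floxed genotypes overlapped each other and neither reached the WT range. Its log2 fold change was -0.39 in HOMO (SE 0.10, limma adjusted p = 0.146) and -0.46 in HTZ (SE 0.10, limma adjusted p = 0.22). Ctnnb1, encoding beta-catenin, which binds cadherin tails and also carries Wnt signals, was the most abundant member, at 635 and 675 TPM in HOMO, 721 and 722 TPM in HTZ, and 877 and 758 TPM in WT libraries. In HOMO it differed from WT by -0.32 on the log2 scale (SE 0.10, limma adjusted p = 0.192). Ctnnd1, encoding the p120-catenin that keeps cadherins at the membrane, stood at 48.4 and 47.5 TPM in HOMO, 55.8 and 46.9 TPM in HTZ, and 59.1 and 57.4 TPM in WT libraries. In HOMO it stood at -0.28 (SE 0.11, limma adjusted p = 0.271). Ctnnd1 was added after its values were seen.

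WT 1 was the higher WT library for Cdh2, Ctnna2, Afdn, Ctnnb1 and Ctnnd1, and the sizes of the differences rested in part on it. Without WT 1, HOMO differed from WT by -0.28 for Cdh2 and -0.21 for Ctnnb1, and by -0.43 for Ctnna2 and -0.29 for Afdn, and HTZ differed by -0.20 for Cdh2. Without HOMO 1 and HTZ 1, which held the most choroid plexus markers, HOMO differed from WT by -0.49 for Cdh2 and -0.52 for Ctnna2. The dentate field markers and the cell cycle markers were also highest in WT 1, the second summing to 429 and 455 TPM in HOMO, 577 and 467 TPM in HTZ, and 712 and 517 TPM in WT libraries. Of the 10 dentate field markers 1 had a higher mean in HOMO than in WT, and of the 10 cell cycle markers 0 did. The immature neuron markers summed to 4541 and 4374 TPM in HOMO, 4518 and 5285 TPM in HTZ, and 5052 and 6374 TPM in WT libraries, and 0 of 10 had a higher mean in HOMO than in WT. The part of these markers in the junction values was not tested.

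**Figure D3:**
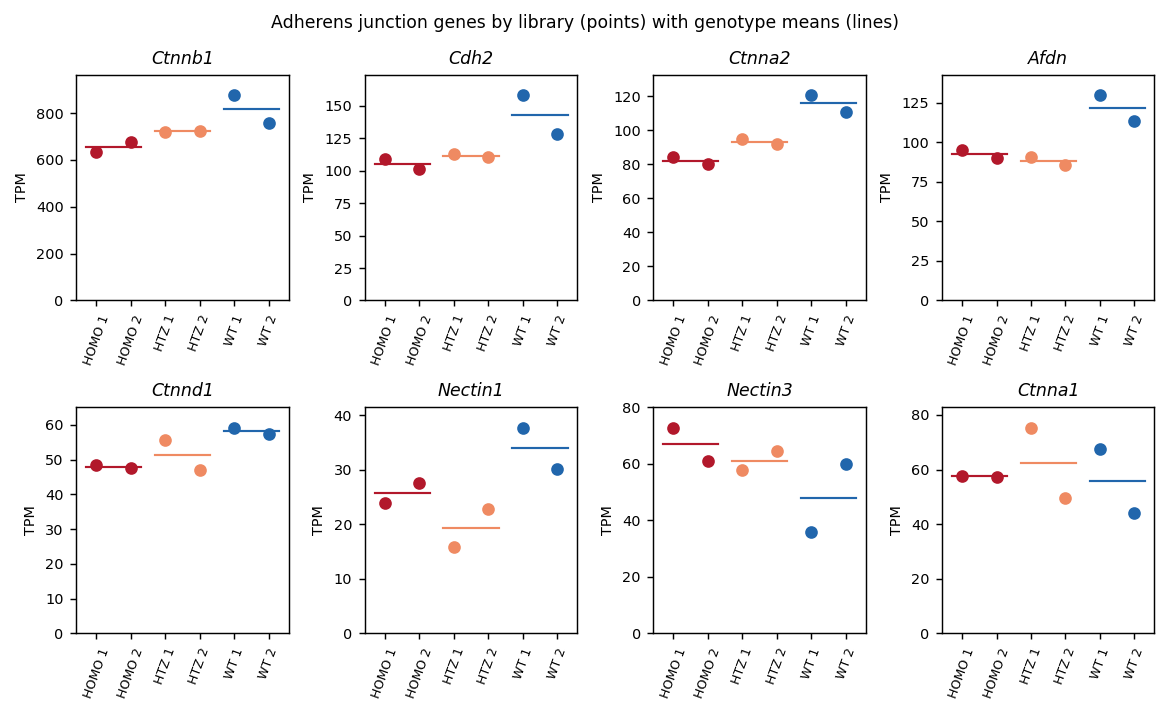
TPM of 8 adherens junction genes by library, with points for libraries and lines for genotype means. Cdh2, Ctnna2, Afdn, Ctnnb1 and Ctnnd1 are lower in all floxed libraries than in WT, Nectin3 is lowest in WT 1, and Ctnna1 overlaps between all genotypes.

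The nectins, immunoglobulin-type adhesion proteins that start a contact before cadherins join it, differed among themselves. Nectin1 stood at 23.8 and 27.6 TPM in HOMO, 15.8 and 22.7 TPM in HTZ, and 37.7 and 30.2 TPM in WT libraries. Its difference in HTZ was -0.80 (SE 0.20, limma adjusted p = 0.254). Nectin3, its usual partner across a contact, stood at 72.7 and 61.0 TPM in HOMO, 57.7 and 64.6 TPM in HTZ, and 35.8 and 59.9 TPM in WT libraries. WT 1 was low for Nectin3, and the HOMO difference of 0.51 (SE 0.23, limma adjusted p = 0.302) was 0.15 without it and 0.88 without WT 2. The log2 ratio of Nectin3 over Nectin1, in TPM + 1, was 1.57 and 1.12 in HOMO, 1.80 and 1.47 in HTZ, and -0.071 and 0.97 in WT. Both WT libraries were lower than all floxed libraries. Nectin2 lay between 22.1 and 28.0 TPM and Tjp1, encoding the scaffold ZO-1 of the tight junction, between 41.1 and 52.1 TPM, with overlapping genotypes.

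The shares of the alpha-catenin pair differed between HOMO and WT libraries. Ctnna1, the epithelial form, stood at 57.7 and 57.3 TPM in HOMO, 75.3 and 49.6 TPM in HTZ, and 67.6 and 43.9 TPM in WT libraries, with all genotypes overlapping. Ctnna2 made up 59.3% and 58.4% of the TPM of both genes in HOMO, 55.7% and 65.0% in HTZ, and 64.1% and 71.6% in WT libraries. The HOMO libraries lay below both WT libraries, and HTZ overlapped WT. Paralogue pairs were picked for ratios that did not overlap between HOMO and WT, so ratios and shares are descriptions and were not tested.

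Crb2 of the Crumbs complex had the largest log2 fold change of any member. It encodes a transmembrane protein of the apical membrane that recruits Pals1 and Patj, and stood at 11.7 and 9.55 TPM in HOMO, 16.2 and 4.37 TPM in HTZ, and 3.03 and 2.42 TPM in WT libraries. Every floxed library was above both WT libraries. The difference from WT was 1.64 in HOMO (SE 0.50, limma adjusted p = 0.174) and 1.37 in HTZ (SE 0.50, limma adjusted p = 0.324), and neither passed. The HTZ value rested on HTZ 1: it was 0.53 without HTZ 1 (limma adjusted p = 0.629) and 2.21 without HTZ 2 (limma adjusted p = 0.00979), where 2.69% of all genes were called and the lone HTZ library was assumed to vary like the others. The HOMO difference passed when HTZ 1 or HTZ 2 was left out, with the same fold change and a limma adjusted p of 0.0149 or 0.0143, the shared spread being then estimated from HOMO and WT libraries alone and 2.72% of all genes being called. Without HOMO 1 and HTZ 1, the 2 libraries with the most Ttr, a choice made after the data were seen, the HOMO difference was 1.51 (limma adjusted p = 0.00486). That value sets HOMO 2 alone against WT, with a spread measured between the WT libraries only and assumed for the lone floxed libraries, and 4.95% of all genes were called there. Crb2 shares exon sequence with Dennd1a on the opposite strand, and whether counting used strand is not given in the sources used here.

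Crb2 was highest where choroid plexus and multiciliated markers were highest. Ttr, the carrier protein gene that marks choroid plexus, stood at 6421 and 184 TPM in HOMO, 11259 and 4.44 TPM in HTZ, and 3.07 and 2.04 TPM in WT libraries, and HTZ 1 led for both genes. HTZ 2, with Ttr near the WT level, held 4.37 TPM of Crb2 and 143 TPM of multiciliated markers. Of the 10 choroid plexus markers 9 had a higher mean in HOMO and 10 in HTZ than in WT. All 10 multiciliated markers were higher in mean in HOMO and in HTZ than in WT, and Tmem212 was listed at 0 in both WT libraries. The part of these markers in the Crb2 difference was not tested.

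The other Crumbs members, Crb1 and Patj, did not follow Crb2. Crb1, its paralogue, stayed between 0.77 and 1.17 TPM in all 6 libraries, below the filter on the mean. Patj, the scaffold that joins Crumbs and Par proteins, stood at 7.63 and 5.78 TPM in HOMO, 6.01 and 3.82 TPM in HTZ, and 5.87 and 4.38 TPM in WT libraries, with overlap between genotypes. Beyond the members, Mpp5, the gene of Pals1, was higher in all 4 floxed libraries. It stood at 14.16 and 14.25 TPM in HOMO, 16.59 and 13.99 TPM in HTZ, and 13.27 and 12.06 TPM in WT libraries. Its HOMO difference was 0.16 (limma adjusted p = 0.595). Crb3 ran from 0.07 to 3.28 TPM, highest in HTZ 1, and overlapped between genotypes. In HOMO, Lin7b differed from WT by 1.02 (limma adjusted p = 0.298), Lin7a by -0.15 and Lin7c by -0.13. The log2 ratio of Crb1 over Crb2, in TPM + 1, was -2.84 and -2.54 in HOMO, -3.28 and -1.45 in HTZ, and -0.89 and -0.93 in WT libraries, so the floxed libraries were lower than the WT libraries in all 4 cases. At these low levels the size depends on the pseudocount: with 0.1 in place of 1 the ratio was -3.76 and -3.39 in HOMO, -4.23 and -2.08 in HTZ, and -1.30 and -1.49 in WT libraries.

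Promoters are printed here because the floxed gene encodes a DNA-binding factor. Eligible were members with an unadjusted p under 0.05 in HOMO against WT and a single promoter window in RefSeq. These were Ctnna2 and Afdn, with the smallest p among members, and Crb2, with the largest fold change. Dlg4 and Cdh2 had a smaller p than Crb2 but did not meet the window rule. The promoter of Crb1 was added because it holds 2 matches beside a paralogue with none. Sequences are RefSeq promoters on GRCm38.p6, which held 33 of the 41 members in 55 windows, searched over 250 bases before the start on both strands for AACAAT and ACAAAG, letters close to the core that Sox proteins bind. Printed are the bases before the start in both RefSeq and GENCODE vM21, 5′ to 3′ on the gene's strand, with matches in capitals: Ctnna2 at chr6:77979700-77979917 (minus strand), Afdn at chr17:13760291-13760538 (plus strand), Crb2 at chr2:37775999-37776248 (plus strand) and Crb1 at chr1:139377101-139377326 (minus strand).
Ctnna2: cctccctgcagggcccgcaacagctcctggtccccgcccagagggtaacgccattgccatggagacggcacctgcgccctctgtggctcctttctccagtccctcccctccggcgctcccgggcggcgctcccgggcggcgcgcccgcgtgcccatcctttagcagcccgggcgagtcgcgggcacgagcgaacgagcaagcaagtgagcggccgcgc
Afdn: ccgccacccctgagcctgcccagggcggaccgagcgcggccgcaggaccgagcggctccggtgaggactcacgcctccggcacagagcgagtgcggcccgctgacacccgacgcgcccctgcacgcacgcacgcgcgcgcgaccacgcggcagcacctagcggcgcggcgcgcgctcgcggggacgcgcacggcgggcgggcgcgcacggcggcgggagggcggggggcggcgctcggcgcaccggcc
Crb2: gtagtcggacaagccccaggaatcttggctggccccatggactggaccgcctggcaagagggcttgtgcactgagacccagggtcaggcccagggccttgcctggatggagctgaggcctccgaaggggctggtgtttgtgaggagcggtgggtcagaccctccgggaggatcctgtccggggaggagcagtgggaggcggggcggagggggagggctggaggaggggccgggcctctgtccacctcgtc
Crb1: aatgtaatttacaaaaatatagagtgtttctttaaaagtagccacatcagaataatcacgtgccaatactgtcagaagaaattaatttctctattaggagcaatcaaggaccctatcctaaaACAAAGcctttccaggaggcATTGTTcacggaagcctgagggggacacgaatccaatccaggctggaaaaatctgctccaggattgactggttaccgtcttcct

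The windows of Ctnna2, Afdn and Crb2 held neither motif on either strand. That of Crb1 held ACAAAG and, on the other strand, AACAAT read as ATTGTT, beginning 128 and 108 bases before the RefSeq start. Over all 32851 promoter windows of the same length, 24.0% held at least 1 of the motifs, and over the 55 member windows 14.5% did. The member windows were richer in G and C, with a median of 60% against 52.4% over all windows. A match is a description of letters and no match says nothing about binding elsewhere.

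**Figure D4:**
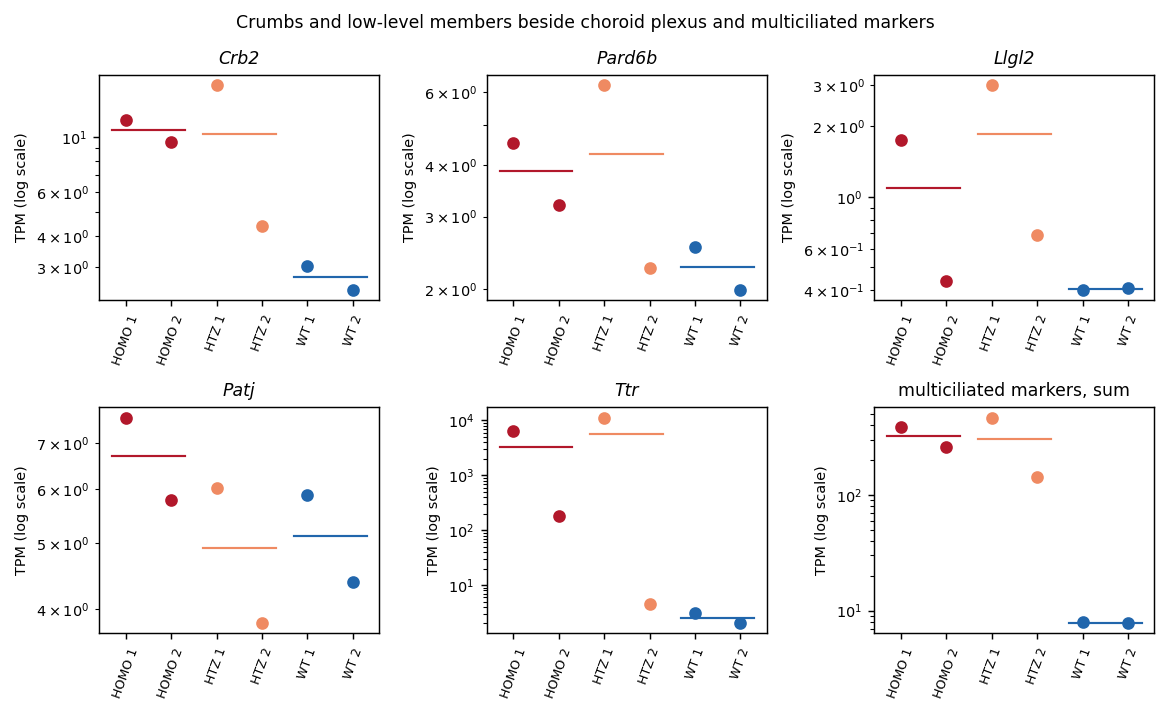
TPM on a log scale by library for Crb2, Pard6b, Llgl2 and Patj, with Ttr and the summed multiciliated markers, with points for libraries and lines for genotype means. HTZ 1 is highest in 5 of the 6 panels and HOMO 1 in that of Patj, and both WT libraries are lowest for Crb2, Llgl2, Ttr and the multiciliated markers.

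A pair of low-level members was also highest in HTZ 1. Pard6b of the Par complex stood at 4.53 and 3.20 TPM in HOMO, 6.25 and 2.25 TPM in HTZ, and 2.53 and 1.99 TPM in WT libraries. Llgl2, the epithelial member of the Lgl family of Scribble partners, stood at 1.75 and 0.44 TPM in HOMO, 3 and 0.69 TPM in HTZ, and 0.40 and 0.41 TPM in WT libraries. HTZ 1 was highest and HOMO 1 next for both, as for Ttr, whose part in these values was not tested.

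No Par complex gene had an unadjusted p under 0.05 in HOMO against WT. Cdc42, the small GTPase that activates the complex, was its most abundant gene, at 512 and 534 TPM in HOMO, 538 and 576 TPM in HTZ, and 556 and 584 TPM in WT libraries. Pard6a, the main form of the adaptor Par6 here, stood at 42.5 and 37.3 TPM in HOMO, 38.0 and 37.5 TPM in HTZ, and 34.1 and 31.6 TPM in WT libraries. All 4 floxed libraries were above both WT libraries, and the HOMO difference was 0.27 (SE 0.11, limma adjusted p = 0.277), or 0.18 without HOMO 1. Pard6g, the third form, stood at 16.4 and 20.4 TPM in HOMO, 18.6 and 17.6 TPM in HTZ, and 27.4 and 19.4 TPM in WT libraries, with overlap between HOMO and WT. As a share of the Pard6 family, Pard6a took 67.0% and 61.3% in HOMO, 60.5% and 65.4% in HTZ, and 53.2% and 59.6% in WT libraries. Against Pard6b alone, which lay between 1.99 and 6.25 TPM, it went the other way in HOMO. That log2 ratio, in TPM + 1, was 2.98 and 3.19 in HOMO, 2.43 and 3.57 in HTZ, and 3.31 and 3.45 in WT libraries.

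The scaffold gene Pard3 lay between 19.3 and 26.4 TPM and its relative Pard3b between 4.26 and 5.90 TPM. The atypical protein kinase C genes, whose products are the enzymes of the complex, lay between 28.2 and 33.4 TPM for Prkci and between 60.7 and 72.2 TPM for Prkcz. Transcripts of Prkcz share 98.6% identity over 1755 bases with Prkcz2, which averaged 0.937 TPM, and reads could be split between them.

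In the Scribble complex Dlg4 was higher in HOMO than in WT libraries and Dlg2 lower, without passing the threshold. Dlg4, encoding the scaffold PSD-95 of excitatory synapses, stood at 242 and 247 TPM in HOMO, 180 and 226 TPM in HTZ, and 155 and 187 TPM in WT libraries. HOMO lay above both other genotypes, and HTZ and WT overlapped. The HOMO difference was 0.52 (SE 0.14, limma adjusted p = 0.15). Dlg2, encoding the related scaffold PSD-93, stood at 85.6 and 84.0 TPM in HOMO, 85.1 and 92.2 TPM in HTZ, and 89.7 and 114 TPM in WT libraries, a HOMO difference of -0.25 (SE 0.13, limma adjusted p = 0.345) that was -0.43 without WT 1 and -0.081 without WT 2. Mature neuron markers summed to 1583 and 2220 TPM in HOMO, 1001 and 1789 TPM in HTZ, and 1064 and 1635 TPM in WT libraries, with 7 of the 10 markers higher in mean in HOMO than in WT. Their part in the Dlg4 difference was not tested.

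Within the Dlg family, Dlg4 took 55.7% and 57.1% of the TPM in HOMO, 49.8% and 55.0% in HTZ, and 45.4% and 46.9% in WT libraries, with both WT libraries lowest. Dlg2 took 19.7% and 19.4% in HOMO, 23.5% and 22.4% in HTZ, and 26.2% and 28.6% in WT libraries, and here the 3 genotypes did not overlap. Dlg1, which carries the epithelial role of the family, stood at 36.7 and 27.4 TPM in HOMO, 32.1 and 24.0 TPM in HTZ, and 27.0 and 24.9 TPM in WT libraries. Scrib, the large scaffold that names the complex, stood at 28.4 and 26.5 TPM in HOMO, 29.7 and 26.7 TPM in HTZ, and 37.4 and 29.2 TPM in WT libraries. The HOMO libraries were below both WT libraries for Scrib and above both for Dlg1. Llgl1 lay between 42.6 and 54.8 TPM, Dlg3 between 36.4 and 44.0 TPM and Dlg5 between 27.3 and 33.8 TPM.

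**Figure D5:**
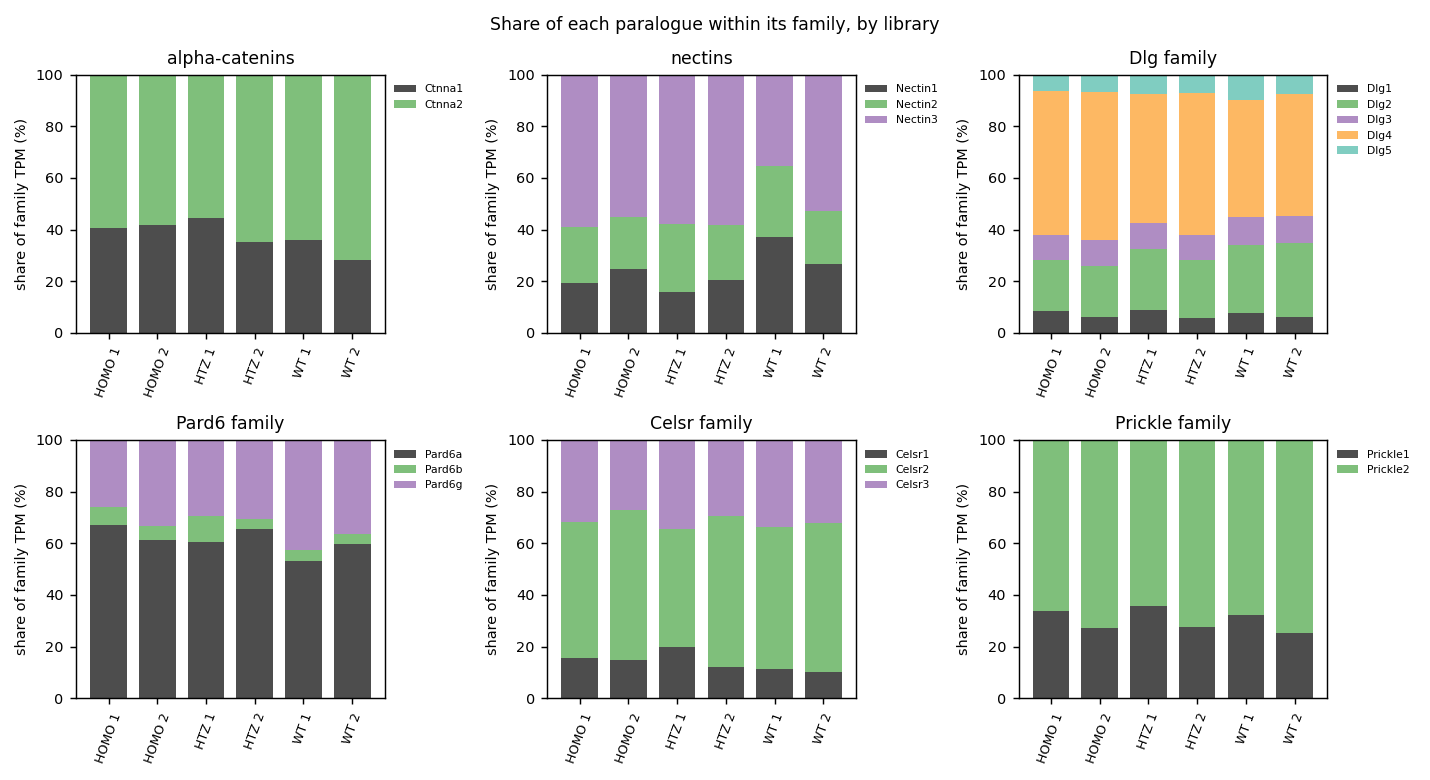
Share of each gene in the summed TPM of its family, as stacked bars that add to 100% in each library, for the alpha-catenins, nectins, Dlg, Pard6, Celsr and Prickle families. Ctnna2 takes a smaller share in both HOMO libraries than in WT, Dlg4 a larger share in all floxed libraries, and Nectin1 its largest share in WT 1.

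The Numb genes, whose endocytic adaptor products are inherited unequally by dividing progenitors and help hold cadherins at the apical junction, are Numb and Numbl. Numbl stood at 61.0 and 61.6 TPM in HOMO, 52.9 and 60.7 TPM in HTZ, and 56.3 and 56.6 TPM in WT libraries. Numb stood at 13.8 and 14.3 TPM in HOMO, 15.8 and 11.4 TPM in HTZ, and 12.5 and 11.7 TPM in WT libraries. HOMO libraries were above WT libraries for both genes and HTZ libraries lay on both sides of them.

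Among the planar polarity genes, Prickle1 was higher in the floxed libraries, and the means of Vangl2, Celsr2, Celsr3 and Dvl3 were lower in HOMO than in WT, with none past the threshold. Prickle1, encoding a cytoplasmic core protein, was higher in all 4 floxed libraries, at 8.28 and 8.50 TPM in HOMO, 6.88 and 7.79 TPM in HTZ, and 5.43 and 5.83 TPM in WT libraries. The 3 genotypes did not overlap, and the difference was 0.50 in HOMO (SE 0.17, limma adjusted p = 0.208) and 0.33 in HTZ (SE 0.17, limma adjusted p = 0.427). Prickle2 lay between 11.4 and 22.8 TPM and overlapped between genotypes. Vangl2, the membrane protein that binds Prickle, stood at 32.6 and 27.4 TPM in HOMO, 35.4 and 28.4 TPM in HTZ, and 46.3 and 35.0 TPM in WT libraries. The HOMO difference was -0.42 (SE 0.18, limma adjusted p = 0.292). Vangl1 was low, between 4.15 and 7.66 TPM.

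The Celsr genes encode large atypical cadherins that bridge neighbouring cells. Celsr2 stood at 53.2 and 64.0 TPM in HOMO, 43.8 and 56.8 TPM in HTZ, and 78.0 and 63.5 TPM in WT libraries, a HTZ difference of -0.49 (SE 0.17, limma adjusted p = 0.317) that was -0.31 without HTZ 1. Celsr3, which acts in axon guidance, is on 2 rows with identical values whose sum was 32.5 and 29.8 TPM in HOMO, 33.4 and 28.9 TPM in HTZ, and 47.6 and 35.3 TPM in WT libraries. Its row gave -0.38 in HOMO (SE 0.18, limma adjusted p = 0.318) and -0.38 in HTZ (SE 0.18, limma adjusted p = 0.392). Celsr1, the form of dividing progenitors, did not follow them, at 16.0 and 16.1 TPM in HOMO, 19.3 and 11.8 TPM in HTZ, and 15.9 and 11.3 TPM in WT libraries. In log2 ratio to Celsr1, in TPM + 1, Celsr3 stood at 0.98 and 0.85 in HOMO, 0.76 and 1.23 in HTZ, and 1.52 and 1.56 in WT libraries, and all floxed libraries were below WT.

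Of the Dishevelled genes, which pass Wnt and planar polarity signals on inside the cell, Dvl3 stood at 49.4 and 49.8 TPM in HOMO, 52.4 and 49.3 TPM in HTZ, and 72.7 and 54.3 TPM in WT libraries. Its difference was -0.34 in HOMO (SE 0.15, limma adjusted p = 0.292). Dvl2 stood between 17.5 and 26.9 TPM and Dvl1 between 47.2 and 58.0 TPM. WT 1 was the highest of the 6 libraries for Vangl2, Celsr2, Celsr3, Dvl1, Dvl2 and Dvl3. Without WT 1 the HOMO differences were -0.22 for Vangl2, -0.17 for Celsr3 and -0.13 for Dvl3, and the HTZ difference of Celsr3 was -0.18. Without WT 2 the HOMO differences were -0.58 for Celsr3 and -0.54 for Dvl3, and the HTZ difference of Celsr3 was -0.59.

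In a wider list of 47 other polarity and junction genes, 45 were tested, Cdh1 and Ctnna3 being under the filter, and 0 were called by limma in any of the comparisons. At an unadjusted p under 0.05 there were 1 higher (8.35% of all genes) and 5 lower (9.8%) in HOMO against WT, and 1 higher (6.42%) and 6 lower (7.63%) in HTZ against WT. Jup, encoding plakoglobin, a close relative of beta-catenin, stood at 22.3 and 25.3 TPM in HOMO, 30.4 and 29.4 TPM in HTZ, and 35.0 and 39.1 TPM in WT libraries. The 3 genotypes did not overlap, and its HOMO difference was -0.62 (limma adjusted p = 0.0984). Dchs1, encoding a giant cadherin of the Fat and Dachsous branch of planar polarity, stood at 26.1 and 25.8 TPM in HOMO, 30.2 and 29.4 TPM in HTZ, and 46.7 and 35.5 TPM in WT libraries, a HOMO difference of -0.63 (limma adjusted p = 0.12). Jup and Dchs1 were picked from the list for their small p. The 1 higher gene was Ocln in both comparisons. Ocln stood at 15.0 and 12.5 TPM in HOMO, 18.8 and 9.99 TPM in HTZ, and 8.11 and 7.07 TPM in WT libraries. Its HOMO difference was 0.78 (limma adjusted p = 0.228).

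Some member values carry a limit of annotation. Exons of Ctnna1, Ctnnb1, Afdn, Llgl1, Dvl1 and Dvl2 overlap a gene on the opposite strand, and reads of the pairs cannot be told apart if counting ignored strand. The transcripts of Ctnnd1 are also those of Gm28635 on the same strand, which was listed at 0 TPM. Transcripts of Afdn share 97.8% identity over 448 bases with Zfp160, which averaged 15.3 TPM, and those of Ctnnb1 100% over 476 bases with Ulk4, at 6.84 TPM. Those of Dvl2 share 99.7% over 382 bases with Acadvl, which averaged 49.1 TPM, beside 21.2 TPM for Dvl2 itself. On GRCm38, Ctnna2 lies on chromosome 6 from 76881637 to 77979699 (minus strand), Afdn on chromosome 17 from 13760539 to 13906150 (plus strand), Crb2 on chromosome 2 from 37776249 to 37799103 (plus strand), Dlg4 on chromosome 11 from 70016942 to 70047522 (plus strand) and Prickle1 on chromosome 15 from 93499114 to 93595891 (minus strand). All 41 are annotated as protein-coding.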

How the data were processed

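Titles and labels gave the genotype of each of the 6 libraries. Per the labels, oligo(dT)-selected RNA was made into TruSeq libraries for paired-end sequencing. The authors deposited 1 table of TPM values; the design text in the labels names TopHat 2.0.11 on mm10 and Cufflinks 2.2.1, while the submitters' processing notes name FastQC and RSEM with mm10 and GRCm38 and no versions. TPM keeps no read depth, so depth is unknown and no counting interval was computed, and a very abundant transcript lowers all others in its library.

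Differences came from limma 3.58.1 (eBayes with trend, R 4.3.3) on log2(TPM + 1), which shrinks fold changes of low genes, over the 14518 of 35274 rows with a mean of 1 TPM or more. All 6 libraries entered 1 fit with a term per genotype and 3 residual degrees of freedom. Tests were two-sided, adjusted over all tested genes, and tried on simulated data. The table lists 167 symbols on several rows, 123 of them with identical values; the second rows hold 2476 to 2738 TPM per library. For Celsr3 levels are the row sum and the test uses 1 row. Exon overlaps came from GENCODE vM21 and near-identical transcripts from BLAST 2.17.0.

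The members and gene lists were chosen with earlier results of these data known. Library values are given for the most abundant member of each group, the 3 with the smallest p in HOMO and the 2 in HTZ, and paralogue pairs whose ratio did not overlap between HOMO and WT. Ctnnd1, Jup, Dchs1 and Ocln were added after their values were seen. Alternatives were a pseudocount of 0.1, no filter, a mean of at least 5 TPM, median-of-ratios rescaling, eBayes without trend, a replicate block, the compared genotypes alone and each library left out. Leaving out the libraries richest in Ttr and summing the Celsr3 rows were added after the data were seen.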

Additional observations from a re-analysis of the deposited data

How the results depend on the processing

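Besides Sox11, single genes were recomputed only in comparisons where their unadjusted p was under 0.1 with all libraries. None of these changed the sign of its difference, which such a choice made unlikely from the start. Members with a larger p were not checked for sign. Group medians near 0 did change sign, as given below. So did the HTZ median of the Crumbs complex, from 0.65 to -0.065 without the filter. The count of called members, 0 with all libraries in every comparison, became 1 in HOMO against WT with the compared genotypes alone (2.71% of all genes called), and likewise 1 when HOMO 1 and HTZ 1, which hold the most Ttr, were left out (4.95%), each time Crb2, and ran from 0 to 1 with single libraries left out (2.72% where it was 1). The fit without HOMO 1 and HTZ 1 has 1 library in each floxed genotype and takes its spread from the WT libraries alone. The count ran from 0 to 1 with single libraries left out in HTZ against WT and for both floxed genotypes against WT, again Crb2 (2.69% and 4.11% of all genes where it was 1), and was 1 for both floxed genotypes with HOMO 1 and HTZ 1 left out (4.58%). With the replicate block it was 1 in HOMO against WT, Ctnna2 (limma adjusted p = 0.0464), and 2 for both floxed genotypes, Ctnna2 (0.0471) and Afdn (0.0452), beside 1.95% and 2.69% of all genes. Library numbers do not pair the samples in the labels, and the deviations of same-numbered libraries correlated at -0.088 between HOMO and WT, 0.21 between HTZ and WT and 0.35 between HOMO and HTZ; the block changed no other member's call. Of the other polarity genes, 1 was called with HOMO 1 and HTZ 1 left out in HOMO against WT and for both floxed genotypes (Lin7b, beside 4.95% and 4.58% of all genes), and from 0 to 1 with single libraries left out in HTZ against WT and for both floxed genotypes (Ocln, beside 2.69% and 4.11%). Calls over all genes ran from 3 to 713 across the alternatives in HOMO against WT, from 1 to 391 in HTZ against WT, from 1 to 45 in HOMO against HTZ and from 3 to 659 for both floxed genotypes.

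Group medians of the log2 fold change moved as follows; the cause was not tested. Without the filter, which adds Crb1, the Crumbs median was 0.33 in HOMO and -0.065 in HTZ. With a mean of at least 5 TPM the Scribble median was -0.049 in HOMO. With median-of-ratios rescaling, which lowers WT 1 most, the Par median was 0.062 in HOMO and 0.046 in HTZ, the Scribble median 0.12 and 0.037 and the Numb median 0.23 and 0.16. The adherens and tight junction median in HTZ was -0.093 with this rescaling. With single libraries left out, the adherens and tight junction median ran from -0.24 to -0.12 in HTZ and from -0.36 to -0.22 in HOMO. With HOMO 1 and HTZ 1 left out, the HTZ medians were 0.10 for Crumbs, -0.13 for Scribble and 0.011 for Numb. With single libraries left out, HTZ medians ran from -0.13 to 0.00064 for Par, 0.10 to 1.21 for Crumbs, -0.13 to 0.010 for Scribble, 0.011 to 0.13 for Numb and -0.41 to -0.13 for planar polarity, and HOMO medians from -0.10 to 0.036 for Par, -0.25 to -0.027 for planar polarity and -0.049 to 0.073 for Scribble. Depth is unknown, and the low values of Crb1, Llgl2 and Pard6b cannot be given a counting error.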
